A study of Homo sapiens with 49 samples.

Results

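The genes described here are 10 textbook estrogen targets of breast cancer cells, TFF1, TFF3, PDZK1, CXCL12, MYB, CTSD, RERG, SERPINA1, RET and AGR3, measured in a uterine cell line. Every probe set whose platform annotation gave one of these symbols was taken, which came to 18 of the 54715 probe sets on the array. The genes were chosen with their levels in these data already known, so their own levels and changes are given as a description, with no test. The name they were grouped under calls them silent in Ishikawa cells, and that held for 8 of the 10 genes: 16 probe sets lay under a log2 level of 4, the floor used here for a measurable signal, on every array. With a floor of 3 instead, only TFF1, CXCL12 and RET lay under it on every array, and TFF3 was above it on 39. The name did not hold for MYB and CTSD, which each had a probe set above the floor on all 49 arrays. No probe set of the 10 genes crossed the floor at any concentration of estrogen.

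Estrogen receptor alpha is a nuclear receptor that, once bound by a steroid, attaches to DNA at estrogen response elements, often with pioneer factors such as FOXA1 and GATA3, and recruits coactivators. In breast cancer cells the response covers secreted proteins such as TFF1, growth factor receptors such as RET, and regulators such as MYB. In the endometrium the same receptor is best known for inducing the progesterone receptor, PGR, and growth. Ishikawa cells are an established line from a human endometrial adenocarcinoma, here a single line.

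All cultures received phenol red-free medium with the serum the labels call CSS, and ethanol as solvent. The vehicle group (6 arrays) had ethanol alone, and the other groups had ethinyl estradiol, a synthetic estrogen, for 72 h at 0.1, 0.3, 1, 3, 10, 100 or 1000 pM, with 7 arrays at 0.3 pM and 6 at each other concentration. Total RNA was measured on Affymetrix HT HG-U133 Plus PM arrays, and values are log2 levels. The labels do not say that replicates were separate cultures, so spreads and p-values measure only the differences between these samples, which may be technical. All 7 concentrations were set against the same 6 vehicle arrays.

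The arrays were alike in scale: their medians ran from 2.95 to 3.05, and between 38.2% and 39.6% of probe sets were above the floor. On 4 arrays, which were the fifth of vehicle, the second of the 0.3 pM group and the sixth of both the 3 pM and the 1000 pM groups, the beta-actin probe set near the 3′ end exceeded the one near the 5′ end by 2.67 to 4.62 log2 units, against 0.80 to 2.06 on the other 45, a difference that grows where RNA is less intact. Several values are therefore also given without those 4. The 10 epithelial markers listed for the endometrium were EPCAM, CDH1, KRT8, KRT18, KRT19, PAX8, SOX17, HOXB13, EMX2 and MUC1. Of these 9 were above the floor on every array. KRT18 and KRT19 are also among the breast luminal markers, so they do not set the endometrium apart from breast. Whether the others do was not tested. Of 10 breast luminal markers 6 were under the floor on every array, GATA3 among them, and 3 were above it on every array. Also under the floor on every array were 8 of 8 immune and endothelial markers and 4 of 8 stromal markers. Another 3 stromal markers were above it on every array, and the collagen genes among the 8 moved at 1000 pM by limma: COL1A2 rose from 7.45 to 8.53 (adjusted p = 1.1e-07), COL1A1 fell from 8.79 to 8.13 (adjusted p = 0.0023) and COL3A1 from 5.18 to 4.59 (adjusted p = 0.041). Their part in the results was not tested.

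CTSD and MYB were above the floor on every array, and AGR3 was under it. The stretches of DNA just before the start of these 3 genes are shown as examples from both sides of the floor. They come from RefSeq on the GRCh38.p14 build, read 5′ to 3′ on the strand of the gene, and cover the 250 bases before the start. Capitals mark GGTCA, or its reverse complement TGACC, the arm of the palindrome that estrogen receptors recognise.
CTSD, chr11:1763928-1764177, minus strand: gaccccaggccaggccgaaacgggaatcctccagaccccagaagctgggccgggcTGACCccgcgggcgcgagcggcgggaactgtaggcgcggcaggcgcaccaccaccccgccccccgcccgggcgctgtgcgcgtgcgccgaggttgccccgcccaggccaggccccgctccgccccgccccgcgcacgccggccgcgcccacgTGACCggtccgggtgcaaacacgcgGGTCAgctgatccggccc
MYB, chr6:135181058-135181307, plus strand: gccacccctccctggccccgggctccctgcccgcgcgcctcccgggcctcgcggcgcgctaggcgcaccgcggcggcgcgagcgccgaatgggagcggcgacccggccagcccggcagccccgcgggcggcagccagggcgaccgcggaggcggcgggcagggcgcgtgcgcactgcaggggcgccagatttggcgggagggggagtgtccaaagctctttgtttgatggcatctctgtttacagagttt
AGR3, chr7:16881984-16882233, minus strand: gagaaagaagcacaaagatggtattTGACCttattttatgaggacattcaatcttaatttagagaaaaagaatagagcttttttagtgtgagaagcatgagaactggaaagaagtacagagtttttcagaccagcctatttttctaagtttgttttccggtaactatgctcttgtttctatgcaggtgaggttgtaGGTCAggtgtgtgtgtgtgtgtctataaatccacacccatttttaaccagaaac
The CTSD stretch holds 3 such arms, 195, 43 and 18 bases before the start, in a sequence with 36 CpG pairs. The MYB stretch holds no arm and has 34 CpG pairs. The AGR3 stretch holds 2 arms, 225 and 54 bases before the start, and has 1 CpG pair. Among the other genes under the floor, CXCL12 had 31 CpG pairs in its stretch, and RET 33 and 6 in its 2 stretches. PDZK1 had 3 and 4, and SERPINA1 11 and 6, so low and high counts both occurred under the floor. Windows of 300 bases (250 before the start and 50 after it) were found for 7 of the 10 genes, 10 windows in all, with none for TFF1, TFF3 and RERG. The full palindrome (GGTCA, any 3 bases, then TGACC) was in none of the 10 windows and in 0.057% of all 35116 windows. The single arm, searched on both strands, was in 7 of the 10 windows (5 genes) and in 37.4% of all windows. The PDZK1 windows overlap, and the arm in each is the same stretch of DNA, so it is counted in both. The GC box GGGCGG, also searched on both strands, was in 6 of the 10 and in 45.0% of all. All 35116 windows had a median of 14 CpG pairs over their 300 bases. These matches describe letters only, and binding was not tested.

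Of the secreted proteins, TFF1 is the trefoil factor whose transcript is the classical marker of estrogen action in breast cancer cells. In vehicle its probe set had a lowest, median and highest level of 2.03, 2.22 and 2.35, and at 1000 pM 1.99, 2.25 and 2.40. These ranges overlapped almost completely, and no array of the 49 exceeded 2.55. The difference at 1000 pM was 0.03 ± 0.08 log2 (SE, n = 6 and 6; 95% interval -0.13 to 0.20), and its highest value at any concentration was 0.12 ± 0.08, at 10 pM. The value at 1000 pM was 0.09 ± 0.09 without the 4 arrays with a high actin difference. With all arrays the upper end of the interval was at most 1.22-fold at any concentration. Signals this close to background can understate a change, here and for the other genes under the floor. In RNA from whole cultures, fewer cells of a type and less RNA per cell cannot be told apart.

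TFF3, a second trefoil peptide of mucous epithelia, was the closest of the 16 low probe sets to the floor. Its vehicle arrays had 3.08, 3.36 and 3.64 as lowest, median and highest, and those at 1000 pM 2.82, 3.00 and 3.55. The ranges overlapped, and the difference was -0.24 ± 0.15 at 1000 pM and -0.32 ± 0.15 at 100 pM. The trefoil partners gave little to set beside them: of 8 genes (TFF2 and 7 mucins or mucin-like genes), MUC1, a membrane mucin, was the only one measurable enough to test. MUC1 differed by -0.19 ± 0.13 at 1000 pM and did not pass the test (limma adjusted p = 0.48). TFF2 stayed under the floor, with a highest array of 3.19.

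SERPINA1 encodes alpha-1-antitrypsin, the secreted inhibitor of neutrophil elastase, and had 4 probe sets. The one with the highest mean, 230318_PM_at, ran in vehicle from 2.60 through a median of 2.93 to 3.29, and at 1000 pM from 2.64 through 2.85 to 3.06. The other 3 stayed between 1.71 and 2.54 on all arrays. The differences at 1000 pM ran from -0.12 to -0.05 over the 4 probe sets, and each 95% interval held 0. Without the 4 arrays 230318_PM_at was at 0.02 and 202833_PM_s_at at -0.08, and the signs differed between probe sets. The 9 clade A serpins and elastase genes with a probe set were likewise under the filter, so none of that family could be tested.

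CXCL12 is a chemokine that draws cells carrying its receptor CXCR4. Its probe set 209687_PM_at had vehicle levels of 1.86, 2.03 and 2.14 (lowest, median, highest) and levels at 1000 pM of 1.93, 2.12 and 2.29. The other, 203666_PM_at, had 1.94, 2.12 and 2.22 in vehicle and 1.82, 1.92 and 2.41 at 1000 pM. The 2 probe sets differed in sign, 0.11 ± 0.08 against -0.10 ± 0.09, and the vehicle and treated arrays of each overlapped. They were 0.14 ± 0.09 and -0.04 ± 0.09 without the 4 arrays. The difference of 0.17 ± 0.08 (95% interval 0.01 to 0.33) for 209687_PM_at at 100 pM was the highest of the 126 differences that 18 probe sets and 7 concentrations gave.

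CXCR4, the receptor for CXCL12, was above the floor on all 49 arrays and fell with estrogen. It had vehicle levels of 4.67, 5.09 and 5.66 and levels at 1000 pM of 4.17, 4.46 and 4.67. All 6 treated arrays were below the vehicle mean, and it fell by 0.71 ± 0.14 log2 (limma adjusted p = 0.00021). It fell by 0.54 at 10 pM (limma adjusted p = 0.035), a call that was lost without the 4 arrays. Averaging the CXCR4 probe sets took the 1000 pM value to -0.40 and the limma adjusted p to 0.073. CXCL16, a transmembrane chemokine, fell by 0.43 ± 0.12 at 1000 pM (limma adjusted p = 0.018), and did not pass with the vehicle and 1000 pM arrays alone (limma adjusted p = 0.21). These were both of the 2 testable genes among 5 of the CXCL12 list, where 4.33% of all genes fell at 1000 pM. The scavenger receptor ACKR3 was under the floor (highest array 3.67).

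RET, a receptor tyrosine kinase for ligands of the GDNF family, had 3 probe sets, all under the floor. The one with the highest mean, 211421_PM_s_at, ran in vehicle from 2.28 through 2.36 to 2.58 and at 1000 pM from 2.04 through 2.33 to 2.65, so the treated arrays spanned the vehicle arrays. Its difference was -0.05 ± 0.09. Among the others, for 205879_PM_x_at the difference was -0.28 ± 0.12 at 1000 pM and -0.45 ± 0.12 at 10 pM, the lowest of all differences of the probe sets under the floor, while 211421_PM_s_at was at -0.04 ± 0.09 at 10 pM. On the other 45 arrays 205879_PM_x_at was at -0.22 ± 0.13 at 1000 pM, with an interval that held 0. At 10 pM it was then at -0.37 ± 0.12, with an interval (-0.62 to -0.12) that left out 0. The remaining probe set, 215771_PM_x_at, was at -0.29 ± 0.11 at 3 pM with all arrays and -0.36 ± 0.11 on the 45. Its intervals there left out 0. With all arrays 215771_PM_x_at was at -0.05 ± 0.11 at 10 pM and -0.09 ± 0.11 at 1000 pM. At 3 pM 211421_PM_s_at was at 0.09 ± 0.09.

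Neurturin, NRTN, a ligand of the RET system, rose while RET stayed under the floor. It had vehicle levels of 6.72, 7.39 and 8.10 and levels at 1000 pM of 8.72, 9.05 and 9.28, so every treated array exceeded every vehicle array. It rose by 1.67 ± 0.17 log2, or 3.18-fold (limma adjusted p = 9.9e-11), and by 0.85 at 10 pM (limma adjusted p = 0.0019). Neurturin signals through GFRA2 or GFRA1 together with RET. GFRA1 was under the floor, with a highest array of 3.94, while GFRA3, the coreceptor of artemin, was measured at a mean of 6.14 and differed by -0.17 ± 0.11 (limma adjusted p = 0.45). NRTN was the only one of 7 testable genes of 14 in the RET list to pass at 1000 pM. Of all genes, 2.88% rose and 4.33% fell there.

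AGR3 belongs to the protein disulfide isomerase family of the endoplasmic reticulum. Its probe set ran in vehicle from 2.42 through 2.68 to 2.89 and at 1000 pM from 2.46 through 2.73 to 3.07. The ranges overlapped, with a difference of 0.10 ± 0.14 (95% interval -0.18 to 0.37), or 0.19 ± 0.15 without the 4 arrays (95% interval -0.11 to 0.49). The highest array was one at 1 pM, at 3.39, still under the floor. AGR2, a secretory pathway isomerase and a breast estrogen target itself, had vehicle levels of 7.61, 7.84 and 8.02 and levels at 1000 pM of 6.91, 7.35 and 7.51. No treated array reached the lowest vehicle array, and AGR2 fell by 0.55 ± 0.09 (limma adjusted p = 1.5e-05). It was the 1 of 6 testable genes of the AGR list to pass at 1000 pM, where 2.88% of all genes rose and 4.33% fell.

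PDZK1 is a scaffold that ties membrane transporters together through PDZ domains, and its mean was below the vehicle mean at all 7 concentrations. Its vehicle arrays had 2.93, 3.28 and 3.45 as lowest, median and highest, those at 100 pM 2.62, 2.86 and 3.14, and those at 1000 pM 2.82, 2.91 and 3.02. The 1000 pM arrays lay at the lower edge of the vehicle arrays, and both stayed under the floor. The differences were -0.38 at 10 pM, -0.40 ± 0.10 at 100 pM (95% interval -0.61 to -0.19) and -0.34 ± 0.10 at 1000 pM. At 0.1, 0.3, 1 and 3 pM they were -0.25, -0.37, -0.10 and -0.21. The lowest vehicle array was replicate 5, one of the 4 arrays with the high actin difference. Without those 4 the values at 10, 100 and 1000 pM were -0.45, -0.46 and -0.41 ± 0.11. At 0.1, 0.3, 1 and 3 pM they were then -0.31, -0.37, -0.17 and -0.22. Whether PDZK1 follows the concentration was not tested.

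NHERF1, another PDZ scaffold of epithelial membranes, was above the floor throughout and rose. It had vehicle levels of 6.22, 6.60 and 7.67 and levels at 1000 pM of 7.07, 7.53 and 8.16. It rose by 0.81 ± 0.19, or 1.76-fold (limma adjusted p = 0.0031), with all 6 treated arrays above the vehicle mean, though 4 of 4 arrays with a high actin difference were the highest of their group. Without those arrays the rise was 0.88 ± 0.13 (limma adjusted p = 5.4e-07). With the vehicle and 1000 pM arrays alone it did not pass (limma adjusted p = 0.11). NHERF1 was the 1 of 3 testable genes of 8 in that list to pass at 1000 pM, where 2.88% of all genes rose and 4.33% fell.

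RERG, a small Ras-like GTPase with growth-inhibiting activity, had a pair of probe sets. 227758_PM_at ran in vehicle from 2.07 through 2.22 to 3.26 and at 1000 pM from 2.03 through 2.24 to 2.46. The 3.26 was vehicle replicate 5, an array with a high actin difference, and the next highest vehicle array was 2.34. With it the difference at 1000 pM was -0.14 ± 0.10, and without the 4 arrays -0.00. The part of RNA quality in that value was not tested. The other probe set, 244745_PM_at, ran from 1.71 to 2.22 in vehicle and from 1.72 to 2.26 at 1000 pM, with a difference of 0.09 ± 0.09. None of the 5 testable Ras-like GTPases of 10 passed at 1000 pM (limma, 0 at an unadjusted p under 0.05).

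MYB, a transcription factor of proliferating and progenitor cells, was the clearest exception to silence. Probe set 204798_PM_at had vehicle levels of 5.36, 5.52 and 5.69, levels at 100 pM of 5.41, 5.63 and 6.01 and levels at 1000 pM of 5.28, 5.50 and 5.73. Every group overlapped the vehicle arrays, and the differences ran from -0.23 ± 0.11 at 1 pM to 0.13 ± 0.11 at 100 pM, with -0.03 ± 0.11 at 1000 pM (95% interval -0.25 to 0.20). Without the 4 arrays the lowest was at 0.3 pM, -0.30 ± 0.10 (95% interval -0.51 to -0.09) in place of -0.20 ± 0.11. With all arrays the upper end of the interval was at most 1.28-fold at any concentration. The second probe set, 215152_PM_at, lay between 1.59 and 2.30 on all arrays, and the probe sets cannot be set against each other. Of the 5 testable MYB family members and cofactors, none passed at 1000 pM (limma, 0 at an unadjusted p under 0.05). The 2 genes whose levels followed MYB most closely over the 49 arrays were AP3M2 (Pearson 0.66, Spearman 0.63) and MAML3 (0.65 and 0.57). Over the other 45 arrays their Pearson values were 0.65 and 0.63, and CACHD1 (0.68) and ARMCX5 (0.67) came before them.

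CTSD, the lysosomal aspartyl protease, was above the floor on every array, at 4.60, 4.91 and 6.37 (lowest, median, highest) in vehicle, 4.42, 4.56 and 4.91 at 100 pM, and 4.49, 4.79 and 5.72 at 1000 pM. The levels ran across all 49 arrays from 4.27 to 6.60, and the 4 arrays with a high actin difference held 5.72 to 6.60 while the other 45 reached only 5.57. On each of the 4 arrays CTSD was the highest of its group. The difference at 1000 pM was -0.31 ± 0.25 (95% interval -0.81 to 0.19) with all arrays and -0.25 ± 0.15 without the 4. At 100 pM it was -0.60 ± 0.25 with all arrays (95% interval -1.10 to -0.09). Without the 4 it was -0.36 ± 0.15 at 100 pM (95% interval -0.65 to -0.07). With all arrays the mean lay below the vehicle mean at every concentration, and at each the arrays overlapped. Without the 4 arrays the difference at 0.1 pM was 0.00. Whether the actin difference plays a part in the level of CTSD was not tested. RHBDD2 and SPINT1 followed CTSD most closely, with Pearson 0.92 and 0.91 over the 49 arrays and 0.75 and 0.69 without the 4, where MGST2 (0.75) and RHBDD2 came closest and SPINT1 did not. The values share the arrays and their RNA. At 100 pM 6 of 14 testable lysosomal genes fell, with CTSF at -0.42, CTSH at -0.35, CTSA at -0.33 and CTSB at -0.27, where 6.27% of all 11075 genes fell. At 1000 pM CTSB fell by 0.30 ± 0.08 (limma adjusted p = 0.014) and CTSH by 0.32 ± 0.10 (limma adjusted p = 0.041), and CTSH no longer passed without the 4 arrays (limma adjusted p = 0.10). With the vehicle and 1000 pM arrays alone neither passed (limma adjusted p = 0.13 for CTSB and 0.18 for CTSH).

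**Figure D1:**
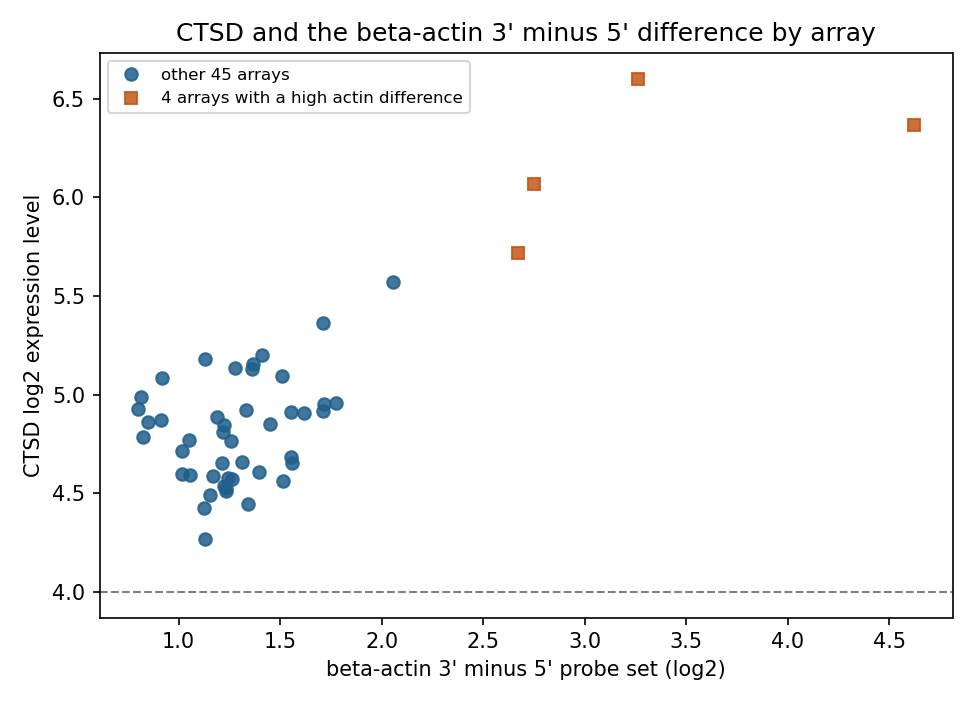
CTSD log2 level against the log2 difference between the 3′ and 5′ beta-actin probe sets on the 49 arrays. Squares are the 4 arrays with a difference above 2.67, which hold CTSD at 5.72 or more; the dashed line is the floor of 4.

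**Figure D2:**
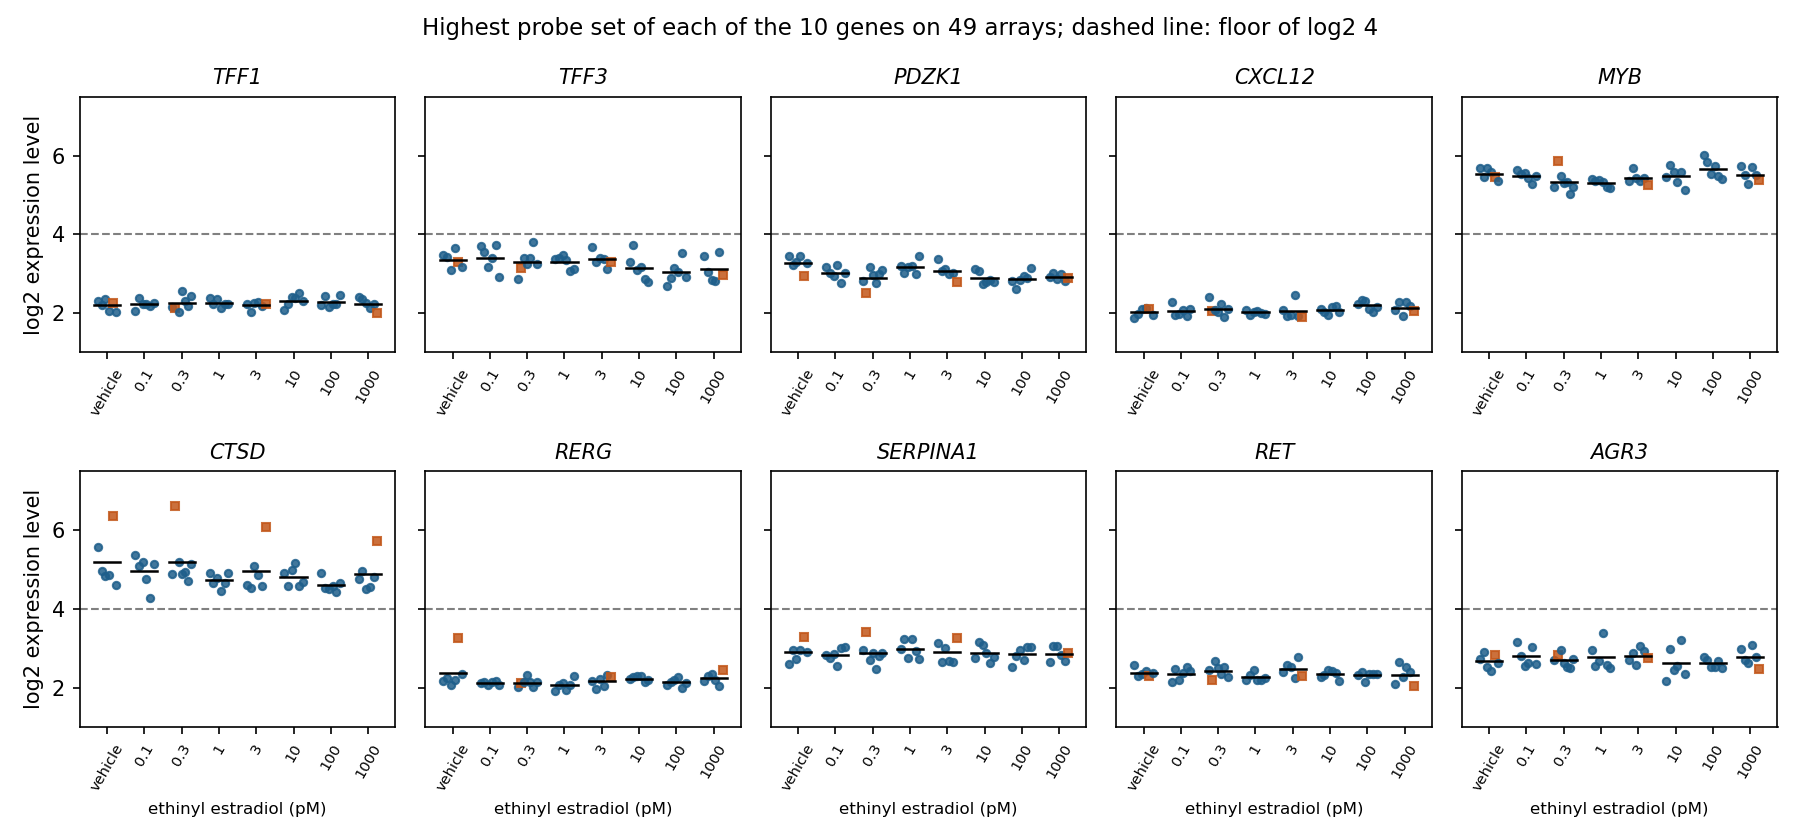
Log2 level of the highest-mean probe set of each gene on 49 arrays, by ethinyl estradiol concentration in pM (horizontal axis). Points are arrays, orange squares the 4 arrays with a high actin difference, short lines group means and the dashed line the floor of 4; MYB and CTSD lie above it on every array and the other 8 below it.

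Across the 126 differences (18 probe sets at 7 concentrations) the values ran from -0.60 to 0.17 with a median of -0.05, 39 above and 87 below 0. In all 126 the vehicle and treated arrays overlapped. Of all probe sets on the array, 0.124%, 0.0475%, 0.208%, 0.139%, 0.404%, 1.62% and 1.24% did not overlap at 0.1, 0.3, 1, 3, 10, 100 and 1000 pM. Past the limma threshold (adjusted p of 0.05 over all 54715 probe sets) was 1 of the 126, the lower value of PDZK1 at 100 pM. Over all probe sets 0.0329% passed at 3 pM, 0.185% at 10 pM, 1.95% at 100 pM and 1.87% at 1000 pM. Nothing is read from that count, since the genes were chosen on these data. Without the 4 arrays PDZK1 also passed at 10 and 1000 pM. In all, 12 of the 126 changed sign without the 4 arrays. With all arrays, among the 16 probe sets under the floor no 95% interval reached above 0.42, or 1.33-fold, which was AGR3; among all 18 it was 0.47, or 1.39-fold, for CTSD. The highest end was 0.49, for AGR3, without the 4 arrays.

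**Figure D3:**
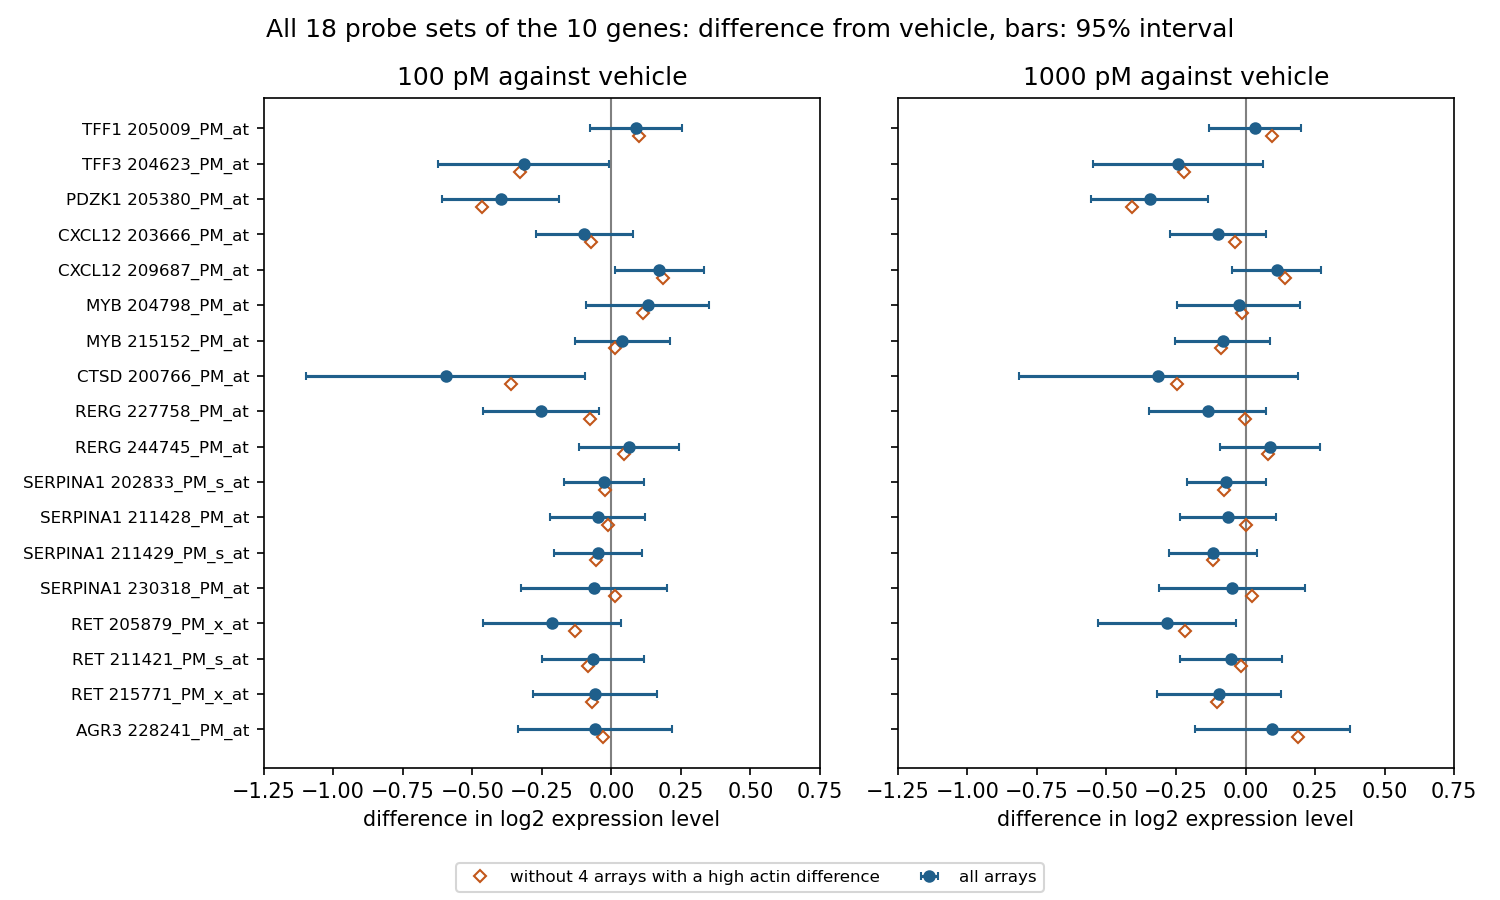
Difference in log2 level from vehicle of all 18 probe sets at 100 and 1000 pM. Filled points with bars are the fitted differences and their 95% intervals, and open diamonds leave out the 4 arrays with a high actin difference; at 100 pM 5 intervals leave out 0, 4 of them below it, and at 1000 pM 2 do, both below it.

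Other estrogen targets rose on the same arrays. Over the 36 other breast estrogen targets (35 with a probe set, 29 testable), 11 rose and 2 fell at 1000 pM, where 2.88% and 4.33% of all genes did, and the median was 0.18 against -0.01 for all genes. Leaving out the 4 arrays gave 10 that rose and 4 that fell. PGR, the progesterone receptor, had vehicle levels of 3.00, 4.09 and 4.68 and levels at 1000 pM of 8.82, 9.16 and 9.37, a rise of 5.13 ± 0.21 (limma adjusted p = 1.3e-24). As 2 of its 6 vehicle arrays were under the floor, the size of that rise depends on signals near background. GREB1, a coactivator of the receptor, went from 5.12 to 7.75 on its highest probe set. This was a rise of 2.63 ± 0.11 (limma adjusted p = 2.3e-24). The other GREB1 probe sets stayed under the floor on every array. Their means were 1.97 and 2.85 in vehicle and 2.01 and 2.92 at 1000 pM. A low, flat probe set thus occurred for a gene that rose on another. TFF1, TFF3, PDZK1 and AGR3 had a single probe set each. EGR3, an immediate early transcription factor, was under the floor on all 6 vehicle arrays and above it on all 6 at 1000 pM, at least 3.08-fold higher against the floor. The 2 that fell were AGR2, described above, and BCL2, by 0.33. At 3 pM 5 of these targets rose, where 0.153% of all genes did, and at 10 pM 8, where 0.506% rose and 0.352% fell. At 100 pM 12 rose and 2 fell, where 3.85% and 6.27% of all genes did, and 11 and 3 without the 4 arrays. The lists were chosen with results of these data known.

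**Figure D4:**
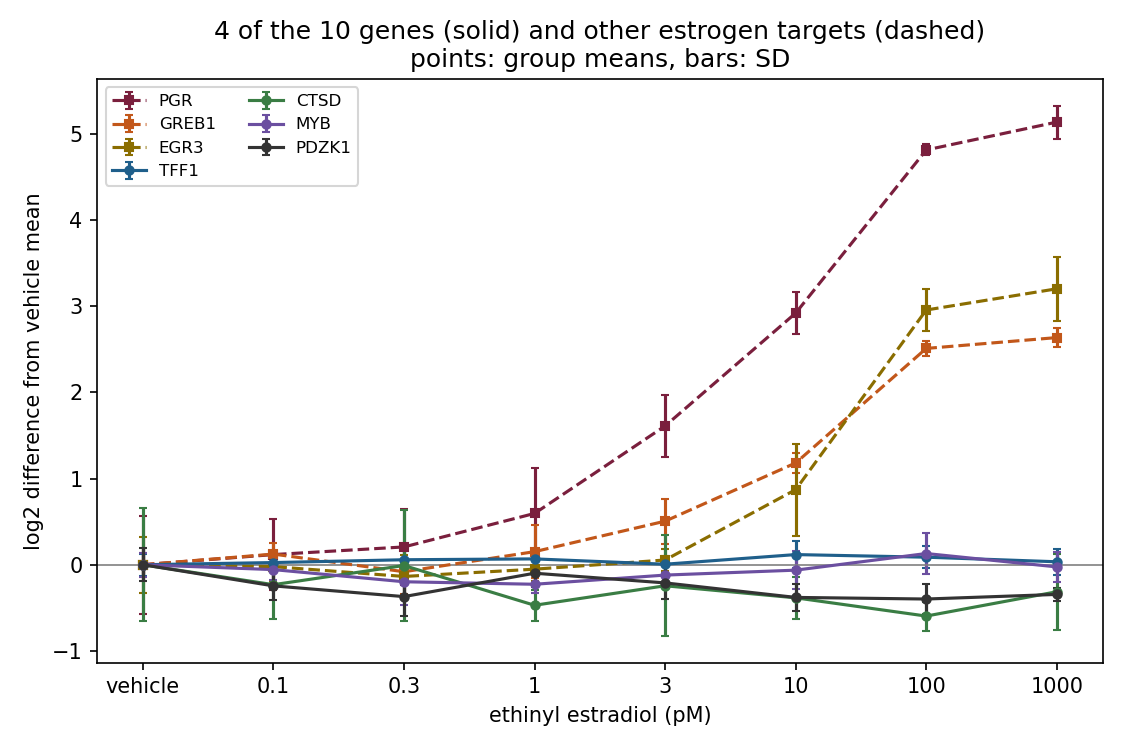
Difference in log2 level from the vehicle mean for TFF1, CTSD, MYB and PDZK1 (solid) and PGR, GREB1 and EGR3 (dashed) by concentration. Points are group means and bars SD (n = 6, or 7 at 0.3 pM). At 1000 pM the dashed lines stand at 5.13, 2.63 and 3.20, and the solid means lie between -0.60 and 0.13 at every concentration. All vehicle arrays of EGR3 and some of PGR were under the floor, so the sizes of their rises depend on signals near background.

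Some probe sets that began under the floor rose above it. Of the 31343 probe sets under the floor on every vehicle array, 15 (0.0479%) were above it on every 1000 pM array, EGR3 and a second PGR probe set (2.05 to 4.86) among them, and none belonged to the 10 genes. ESR1, the gene of estrogen receptor alpha, was read on its highest probe set. Its mean there was 8.24 in vehicle and 8.29 at 1000 pM (0.04 ± 0.05, limma adjusted p = 0.67). The other ESR1 probe sets had vehicle means from 2.57 to 3.60. All 6 ESR2 probe sets were under the floor, at most 2.96. Of 12 testable receptor and cofactor genes 1 passed at 1000 pM, where 2.88% of all genes rose and 4.33% fell. This was FOXA1, which fell by 0.45 ± 0.11 (limma adjusted p = 0.0064, or 0.077 with the vehicle and 1000 pM arrays alone). GATA3 was under the floor on every array, at most 2.60.

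**Figure D5:**
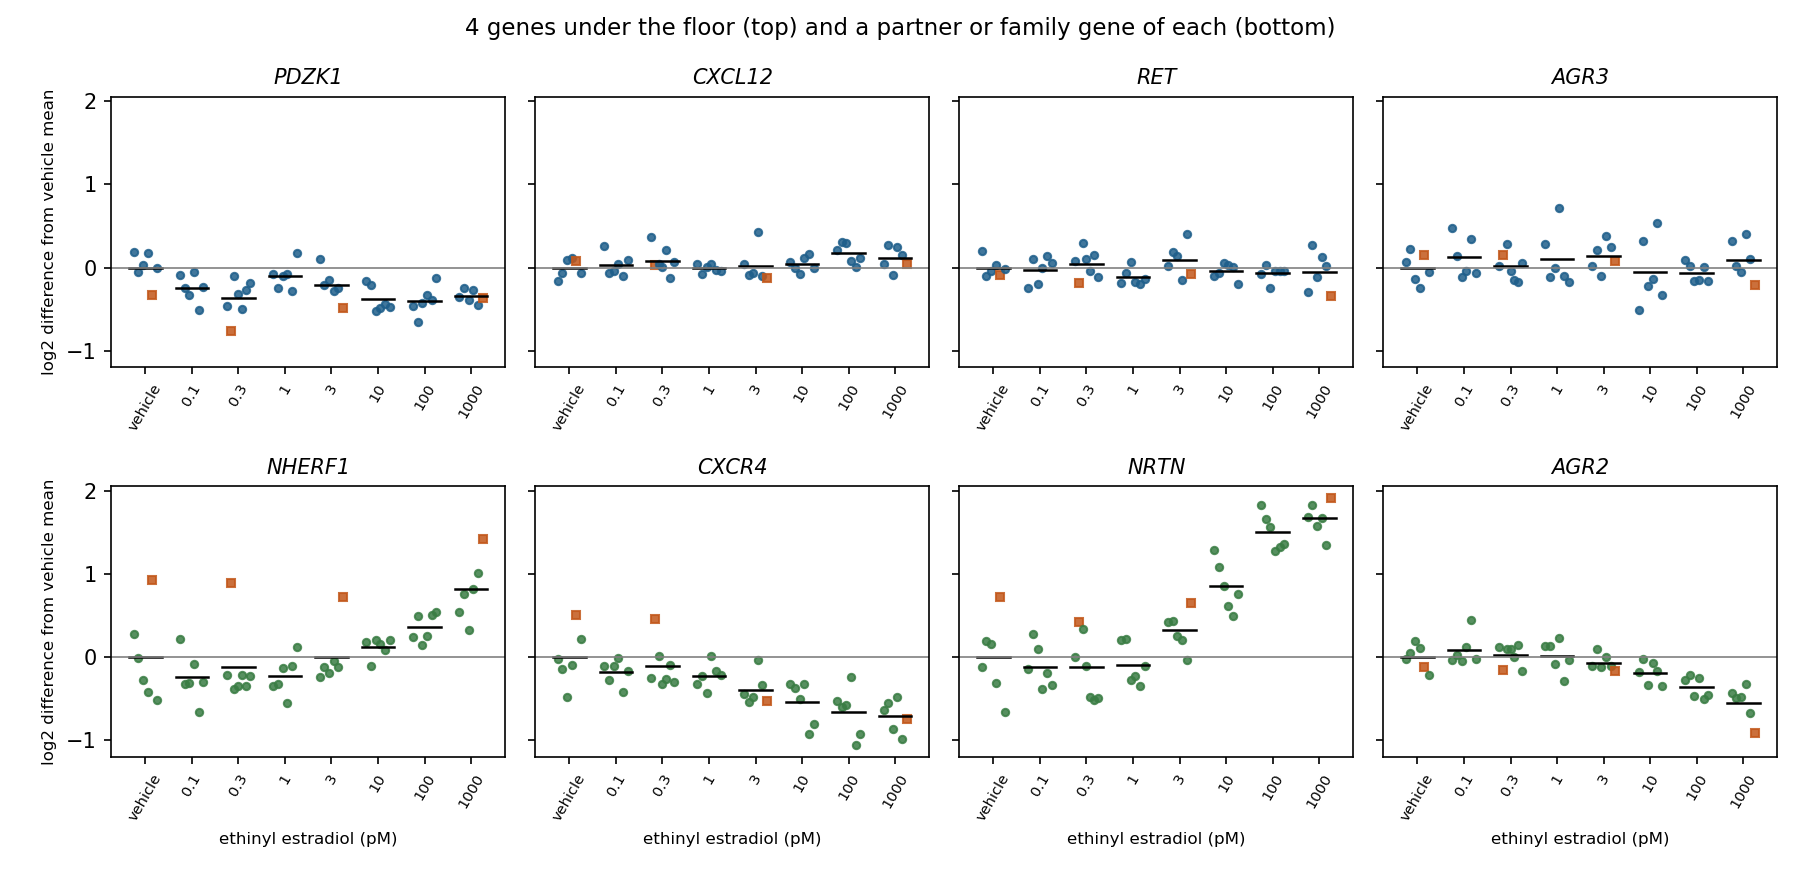
Log2 difference from the vehicle mean on every array for PDZK1, CXCL12 (209687_PM_at), RET (211421_PM_s_at) and AGR3 (top) and for a partner or family gene of each, NHERF1, CXCR4, NRTN and AGR2 (bottom). Orange squares are the 4 arrays with a high actin difference and lines are group means; at 1000 pM the means of the bottom row are 0.81, -0.71, 1.67 and -0.55.

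Over the 43 testable partner and family genes of the 10, 2 rose and 5 fell at 1000 pM, where 2.88% and 4.33% of all genes did. At 100 pM 1 rose and 10 fell, where 3.85% and 6.27% of all genes did. The rises at 1000 pM were NRTN and NHERF1, and the falls CXCR4, CXCL16, AGR2, CTSB and CTSH.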

How the data were processed

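The deposited values are log2 expression levels that the authors made from the array scans with GCRMA in Partek, per the submitters' processing notes (versions and settings not given in the sources used here). RNA was total RNA, labelled through 3′ in vitro transcription, so probe sets mostly read the 3′ end. From there R 4.3.3 with limma 3.58.1 fitted group means over 8 groups (49 arrays) with an intensity trend, p-values adjusted by Benjamini-Hochberg with a threshold of 0.05. Genes were tested through 1 probe set each, the one with the highest mean among those above a log2 level of 4 on at least 6 arrays (11075 genes). Members' differences came from the same fit on all 54715 probe sets. Python 3.11.15, pandas 2.3.3 and matplotlib 3.10.9 served sequences and figures. Probe sets were named where the annotation gave 1 symbol (40920; 864 gave several, 12931 none). The members and the 15 gene lists (167 genes) were chosen with earlier results of these data known. Named were all members, ESR1, ESR2, PGR and GREB1, up to 4 called genes per list with the largest change at 1000 pM, and the 2 genes most like MYB and CTSD; BCL2, MUC1, GFRA1, GFRA3, TFF2, ACKR3, GATA3, CTSA, CTSF and others were picked as examples after their values were seen. The fit was tested on simulated data. Same-numbered replicates were not paired by the labels, and the check of shared deviations did not pair them (0 of 7 comparisons). No depth applies to arrays; their number limits the precision. Alternatives were the filter, the intensity trend, averaging probe sets, quantile or median scaling, the replicate block, vehicle and 1000 pM alone, floors of 3 and 5, and leaving out the 4 arrays.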

Additional observations from a re-analysis of the deposited data

Results flagged for a closer look

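In 144 groups checked (18 probe sets in 8 groups), 12 held an array far from the others of its group, where 1 in 20, or 7.2, would come up by chance. Of the 12, 3 were on arrays with a high beta-actin difference: CTSD at 6.60 in 0.3 pM replicate 2 (next 5.20), CTSD at 6.07 in 3 pM replicate 6 (next 5.09), and RERG 227758_PM_at at 3.26 in vehicle replicate 5 (next 2.34). The other high ones were CXCL12 209687_PM_at at 2.45 in 3 pM replicate 4, MYB 215152_PM_at at 2.30 in 0.1 pM replicate 3 and 2.18 in 0.3 pM replicate 1, and RET 215771_PM_x_at at 2.64 in vehicle replicate 3 and 2.42 in 1000 pM replicate 4. The low ones were RERG 244745_PM_at at 1.70 in 0.1 pM replicate 1 and 1.66 in 1 pM replicate 6, SERPINA1 202833_PM_s_at at 1.83 in 100 pM replicate 2, and RET 211421_PM_s_at at 2.14 in 100 pM replicate 3. All of these values but those of CTSD lie under the floor.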

How the results depend on the processing

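The array cannot order levels under the floor, and a low level is no proof of absent RNA; probe sets that miss an isoform, and the 3′ weighting, were not examined. With a floor of 3, 6 member probe sets were above it on at least 6 arrays instead of 2, though still 2 on every array. Without the 4 arrays, member probe sets past the threshold went from 0 to 1 at 10 pM and at 1000 pM (PDZK1, lower, both times). Nothing is read from those calls, since the genes were chosen on these data. Among the receptor and cofactor genes, calls at 100 pM (1) went to 0 with no filter, no trend or quantile scaling, and without the 4 arrays the 1 rise was lost and 1 fall passed; at 1000 pM (1) they went to 2 with no filter and 0 with vehicle and 1000 pM alone. For the partner and family genes, 2 calls at 10 pM became 1 with no filter, averaging, quantile scaling, median centring or without the 4 arrays, 11 at 100 pM became 7 with no filter, and 7 at 1000 pM became 3 with vehicle and 1000 pM alone, among them NHERF1 (limma adjusted p = 0.11) and CXCL16 (limma adjusted p = 0.21) no longer passing. The replicate block took the receptor and cofactor calls from 0 to 1 at 10 pM and from 1 to 2 at 100 pM, changing no other list's count by over 1.5 times; pairs of same-numbered arrays correlated between -0.57 and 0.57, so the numbers do not pair the arrays. No called value of a named gene changed sign. Of the other values at 1000 pM, 205 kept their side of the threshold and 11 no longer passed. The causes were not tested.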
